A study of Mus musculus with 28 samples.

Results

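Ribosomal RNA features of nuclear origin, that is 5S and 5.8S ribosomal RNA (rRNA) and their copies across the genome, were described in RNA precipitated together with PKR, a kinase. The tables hold 30210 features, of which 338 are annotated as nuclear rRNA, and 112 of these had 0 counts in every library of datasets A and B. The members are the 99 features with a mean of 10 or more counts over these 24 libraries, and 239 fell below. Just inside the threshold were Gm23957 with a mean of 10.33 counts and n-R5s40 with 11.33, and just outside were ENSMUSG00000064704 with 9.875 and ENSMUSG00000065873 with 9.292. Members were thus chosen by their mean counts, which are given as a description only. Many copies carried nearly the same count in every library, and collapsing those within 3% or 3 counts left 67 copy sets, of which 1 held 32 copies, 1 held 2 and 65 were single features. Each set is represented below by its copy with the highest mean, since how reads that fit several copies were counted is not stated.

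The cells were mouse embryonic fibroblasts (MEF) reconstituted with PKR, either the wild-type protein (WT) or a form with a mutation in every motif that binds double-stranded RNA (RM). They were mock-treated or received palmitic acid at 0.1 mM. RNA was sequenced from PKR immunoprecipitates in all groups, and the sources used here do not give the promoter or the number of clones behind the lines. Since the samples include neither an input nor a control precipitate, abundance, binding to PKR and background cannot be told apart, nor can fewer cells and less RNA per cell. Datasets A and B hold 3 libraries, called biological replicates by the labels, in each of 4 groups: WT mock, WT palmitate, RM mock and RM palmitate. Dataset C holds 1 library per group and is only described. The columns of B carry a mark of 2 hours that the labels do not explain, so what sets B apart from A, in treatment or preparation, is not known here.

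In the ribosome, 5S rRNA belongs to the large subunit and enters it together with the ribosomal proteins Rpl5 and Rpl11. It is transcribed by RNA polymerase III from tandem repeats, with the help of transcription factor IIIA, which binds inside the gene. The 5.8S rRNA is cut out of the long precursor made by RNA polymerase I and base-pairs with the longest rRNA of the large subunit. Both fold into short helices. Mammalian genomes also carry many dispersed copies of these genes, most of which are pseudogenes with parts of the sequence changed or lost. PKR is activated by double-stranded RNA, which it binds through the motifs that are mutated in RM.

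The 5S array lies on chromosome 8, where 51 members stand on the minus strand between 126062686 and 126147645 of mm9. Their starts are 1665 to 1727 bases apart, with a median of 1697, and 49 of them are 119 bases long and 2 are 109. They fell into 19 copy sets with mean counts from 3107 to 16094, the highest being the 32-copy set, represented by ENSMUSG00000093200 (126089869 to 126089987). The remaining members are the 148-base 5.8S feature n-R5-8s1, with a mean of 110312 counts, and 47 dispersed features. Sequences were at hand for 42 of the 99 members, in the GENCODE M21 transcripts, and for none of the 51 of the array, whose identifiers are not listed there. GENCODE M21 lists 51 rRNA genes at the array under other identifiers. Of these, 49 are as long as Rn5s and 32 are identical to it, but they were not matched to single members. Of the 42, 40 aligned best to the 5S transcript Rn5s and 2 to 5.8S. The transcript of n-R5-8s1 served as the 5.8S reference, so its own match was given. The other was Gm24601 (chromosome 6, 94776775 to 94776917, minus strand). It was identical over 78.3% of its aligned positions, with a longest identical run of 15 bases.

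The dispersed 5S copies differ in where their longest stretch identical to 5S rRNA lies. This run was measured against the 119-base transcript Rn5s of the array, with positions counted from 1 at its 5′ end. It is not all of 5S that a copy still holds: n-R5s2 and n-R5s33 are identical to Rn5s at 115 of 119 aligned positions, n-R5s185 at 114 and n-R5s64 at 111. The run covers positions 1 to 90 in n-R5s193 and 65 to 119 in n-R5s2, the most counted dispersed 5S copies. It covers positions 47 to 80 in n-R5s155 (GRCm38 chromosome 7, 90293734 to 90293846, plus strand) and 48 to 75 in n-R5s90 (chromosome 9, 111613898 to 111614015, minus strand). These are shown because they belong to the copies that differed most between WT and RM, with the run in capitals.
n-R5s155: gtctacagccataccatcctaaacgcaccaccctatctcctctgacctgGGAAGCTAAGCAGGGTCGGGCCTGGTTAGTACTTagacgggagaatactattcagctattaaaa
n-R5s90: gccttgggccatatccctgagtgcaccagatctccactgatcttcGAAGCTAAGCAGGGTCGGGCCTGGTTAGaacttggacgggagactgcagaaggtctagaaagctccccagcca
By the place of the run, of the 40 5S-like features 8 hold a run that starts within the first 7 bases of Rn5s, 4 hold a run that reaches its last base, and 28 hold an interior run.

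Libraries of dataset A held from 254762 to 8036622 counts and those of B from 2204502 to 7122087. The members took 10.5% to 35.5% of the counts in A and 13.3% to 26.5% in B, and copies beyond the representatives made up 6.67% to 26.6% and 9.29% to 18.2%. The library of 254762 counts, RM palmitate replicate 2 of A, had the highest of these shares and stands apart in several results below. Of 13 fibroblast markers, 12 were counted in all 24 libraries, and their summed level was between 7984 and 27111 CPM (counts scaled to the library size). For macrophages and lymphocytes, 8 markers were found, of which 3 were at 0 throughout, and their summed level stayed at or below 5.2 CPM. It stayed at or below 15.1 CPM for 5 epithelial and at or below 8.62 CPM for 4 endothelial markers.

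The 5.8S feature n-R5-8s1 (mm9 chromosome 18, 73693057 to 73693204, minus strand) was several times higher in WT than in RM libraries of dataset A, under both treatments. Its levels there were 88433, 79559 and 95156 CPM in WT mock, 32129, 76090 and 105376 in WT palmitate, 12419, 8824 and 7029 in RM mock, and 10828, 10857 and 6260 in RM palmitate. Every WT library was above every RM library. The log2 fold change of WT against RM was 3.22 ± 0.62 (SE, 3 libraries per group, adjusted p = 0.00373, edgeR) in mock and 2.93 ± 0.61 (adjusted p = 0.00884) in palmitate. As a share of all counts it ran from 2.6% to 9.45% in the 6 WT libraries and from 0.777% to 1.24% in the 6 RM libraries of A.

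Gm24601, the other 5.8S-like feature, showed the same order at a lower level. It had 2054, 2001 and 2334 CPM in WT mock, 1916, 2385 and 3274 in WT palmitate, 232, 237 and 206 in RM mock, and 441, 93.1 and 203 in RM palmitate of dataset A. The groups did not overlap, and the log2 fold change was 3.24 ± 0.51 (adjusted p = 4.64e-04) in mock and 3.33 ± 0.51 (adjusted p = 5.95e-04) in palmitate. Both 5.8S features were called under each of the 11 alternatives run for each of these comparisons.

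**Figure D1:**
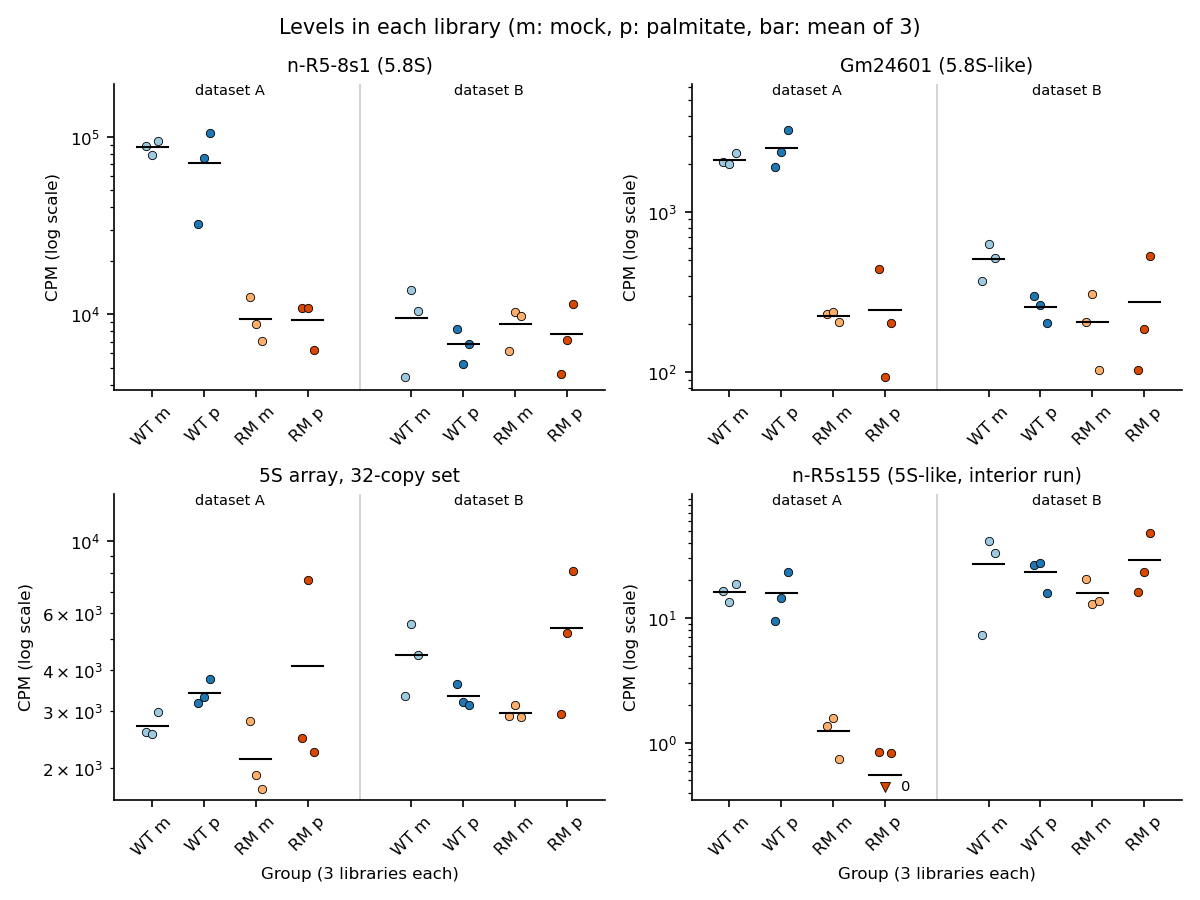
Levels in CPM (log scale) of 4 rRNA features in each library of datasets A and B, with the mean of each group as a bar and a triangle for a library at 0. In A, n-R5-8s1, Gm24601 and n-R5s155 are higher in every WT library than in every RM library, while the 32-copy 5S set overlaps between WT and RM.

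In dataset B the 5.8S levels of WT and RM overlapped. The level of n-R5-8s1 was 4394, 13682 and 10390 CPM in WT mock, 8254, 5217 and 6813 in WT palmitate, 6222, 10266 and 9761 in RM mock, and 4613, 7154 and 11385 in RM palmitate. The log2 fold change of WT against RM was 0.12 ± 0.39 (adjusted p = 0.877) in mock and -0.19 ± 0.39 (adjusted p = 0.821) in palmitate. Gm24601 had 373, 633 and 519 CPM in WT mock, 299, 265 and 202 in WT palmitate, 205, 309 and 103 in RM mock, and 104, 187 and 536 in RM palmitate. Its WT mock libraries all lay above its RM mock libraries, yet the difference of 1.30 ± 0.61 was not called (adjusted p = 0.196). The genotype difference itself differed between the datasets, by 3.11 ± 0.52 on the log2 scale for n-R5-8s1 (adjusted p = 2.92e-04) and by 2.66 ± 0.51 for Gm24601 (adjusted p = 0.0021), averaged over treatments.

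No set of the 5S array was called between WT and RM in the fit of all 12 libraries of dataset A. The 32-copy set had 2569, 2540 and 2960 CPM in WT mock, 3155, 3310 and 3767 in WT palmitate, 2778, 1899 and 1721 in RM mock, and 2476, 7620 and 2242 in RM palmitate of dataset A. Its highest value is that of the shallow library, and WT and RM overlapped. The log2 fold change of WT against RM was 0.33 ± 0.49 (adjusted p = 0.759) in mock and -0.27 ± 0.49 (adjusted p = 0.82) in palmitate. Over the 19 array sets the log2 fold changes ran from 0.08 to 0.87 in mock, with a median of 0.39 and a lowest adjusted p of 0.468. In palmitate they ran from -0.90 to 1.05, with a median of 0.17 and a lowest adjusted p of 0.175. In each treatment 8 of the 19 sets had every WT library above every RM library. The share of all features without overlap was not computed, so an excess among the array sets is not shown. The largest differences were 0.87 for ENSMUSG00000075790 and ENSMUSG00000092783 in mock and 1.05 for ENSMUSG00000075862 in palmitate. In RM palmitate the shallow library was high for ENSMUSG00000075790, at 4327 CPM beside 592 and 517. It was low for ENSMUSG00000075862, at 476 CPM beside 1138 and 749. How many array sets are called without that library is not given here.

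The next array set, ENSMUSG00000075740 (126066078 to 126066196), had 1736, 2021 and 2377 CPM in WT mock, 2515, 2650 and 3129 in WT palmitate, 2388, 1612 and 1442 in RM mock, and 2101, 1765 and 1831 in RM palmitate of A. ENSMUSG00000093367 (126106750 to 126106868) had 1469, 1608 and 1893, then 1973, 1885 and 2460, then 1698, 1407 and 1192, and then 1670, 2493 and 1464 CPM in the same order of groups. ENSMUSG00000075838 (126072856 to 126072974) differed from it by little, with 1473, 1613 and 1879, then 1975, 1858 and 2463, then 1709, 1424 and 1184, and then 1668, 2396 and 1485 CPM. In these 3 sets the WT and RM mock libraries overlapped, and in palmitate ENSMUSG00000075740 did not overlap, at 0.54. The dispersed copy n-R5s193, which holds the first 90 bases of 5S (mm9 chromosome 4, 149191841 to 149191949, plus strand), followed them with 1671, 2028 and 2278 CPM in WT mock, 2428, 2602 and 3056 in WT palmitate, 2277, 1545 and 1361 in RM mock, and 2023, 1731 and 1802 in RM palmitate.

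Among the sets tested in dataset A, 14 were called higher and 2 lower in WT than in RM under mock treatment. Of all features tested, 3.03% were called higher and 0.715% lower. In palmitate 18 sets were called higher, against 2.49% of all features, and none lower. The sets tested numbered 60, since 7 did not pass the filter on low counts. Members with low counts could enter through the group in which they were high. The median log2 fold change of the tested sets was 0.79 in mock and 0.94 in palmitate, beside 0.01 and 0.02 over all features. Of the sets called higher, 12 were called in both treatments and 20 in at least 1. Besides the 5.8S pair these were 17 dispersed 5S-like features and ENSMUSG00000070199, a dispersed feature without a sequence at hand.

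All 17 of the dispersed 5S-like features called higher in WT hold an interior run. Of the 28 features with an interior run, 23 were tested, and 11 were called higher in mock and 15 in palmitate. None was called higher of the 6 tested features whose run starts near the 5′ end or of the 4 whose run reaches the 3′ end. Other settings gave exceptions. The 5′ copy n-R5s175 stood at 1.15 ± 0.34 in mock without overlap (adjusted p = 0.074), and was called there with no filter on low counts (adjusted p = 4.67e-04) and with the replicate block (adjusted p = 0.0335), and in palmitate with no filter (adjusted p = 0.0107). The 3′ copy n-R5s33 was called higher in palmitate without the shallow library, at 0.91 (adjusted p = 0.0382). The grouping by place, and the split by length that follows, were made after the values were seen and carry no test. Of 16 features with interior runs of 34 bases or fewer, 11 passed the filter on low counts. Of these, 8 were called in mock, with log2 fold changes from 2.69 to 3.70, and 6 in palmitate, from 2.60 to 4.17. Short runs went with low mean counts (Spearman's rho 0.81 between run length and mean count over the 40 5S-like features). Features low in RM could pass the filter through WT alone, so the counts and medians of this class may lean toward a WT excess. The median over the 11 was 2.96 in mock and 2.60 in palmitate. With longer interior runs, 3 of 12 were called in mock, from 1.05 to 1.52, and 9 in palmitate, from 1.38 to 2.11, and the medians over the 12 were 1.01 and 1.82. The classes overlapped. Among the short runs, n-R5s71 was at 0.06 ± 0.25 (adjusted p = 0.929) and n-R5s205, with positions 34 to 62, at -0.34 ± 0.31 (adjusted p = 0.591) in mock, both with WT and RM overlapping. Among the longer runs, n-R5s156 was at 1.93 ± 1.17 (adjusted p = 0.428) and n-R5s161 at -0.03 ± 0.26 (adjusted p = 0.973) in mock, and n-R5s77 at -2.89 ± 1.49 in palmitate (adjusted p = 0.359). The WT mock libraries of n-R5s156 all lay above its RM mock libraries. In RM palmitate the shallow library stood at 614 CPM for n-R5s156, beside 22.6 and 16.4. For n-R5s77 it stood at 607 CPM, beside 12.8 and 10.8. These 5 features were named after their values were seen.

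**Figure D2:**
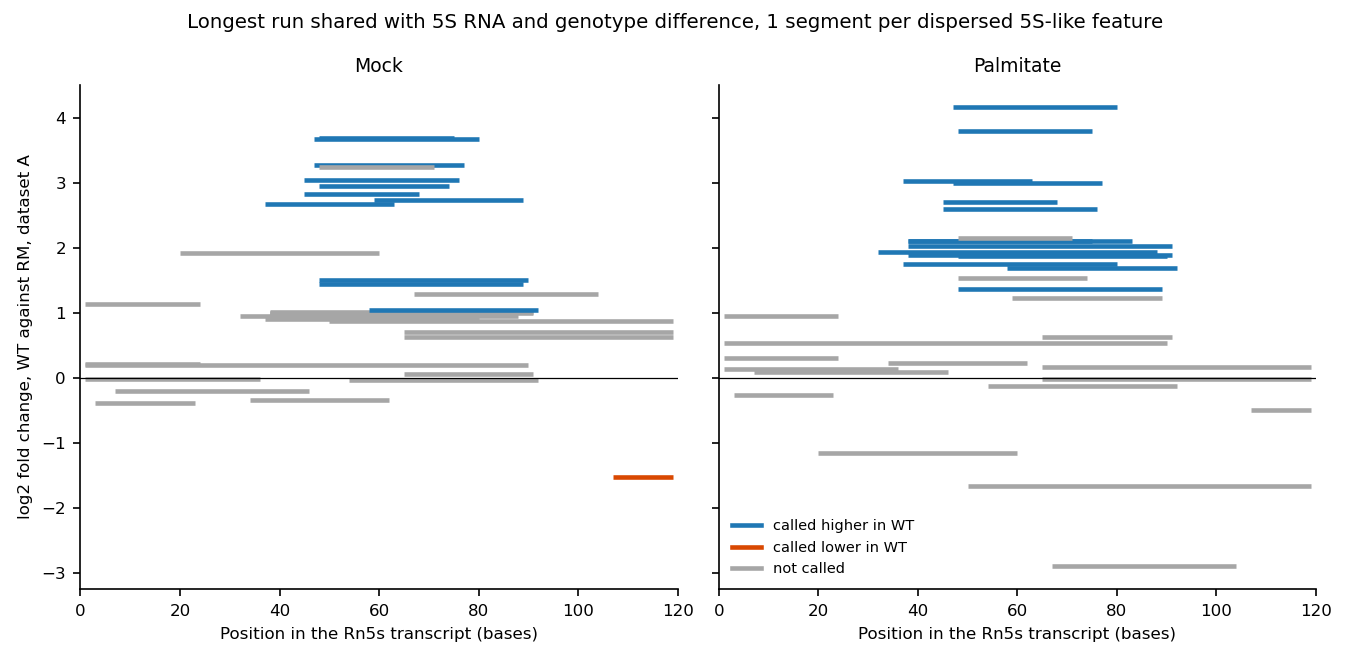
Each segment is 1 dispersed 5S-like feature tested in dataset A, drawn over the positions of its longest run shared with Rn5s (x axis, bases) at its log2 fold change of WT against RM (y axis). The segments called higher in WT (blue) lie in the interior of 5S in both treatments, where others are not called (grey), and those starting at the 5′ end are not called.

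The largest differences were those of n-R5s155 and n-R5s90, which were picked for their values. With RM levels near the floor, both passed the filter on low counts through WT. Their differences are thus descriptions and not separate support for a WT excess. In A, n-R5s155 (chromosome 7, 97442244 to 97442356) had 16.6, 13.4 and 18.7 CPM in WT mock, 9.49, 14.6 and 23.3 in WT palmitate, 1.37, 1.59 and 0.741 in RM mock, and 0.841, 0 and 0.828 in RM palmitate. Its log2 fold change was 3.68 ± 0.35 (adjusted p = 1.99e-06) in mock and 4.17 ± 0.43 (adjusted p = 1.03e-05) in palmitate. For n-R5s90 (chromosome 9, 111516402 to 111516519) the levels were 11.6, 16.4 and 13.1 CPM in WT mock, 6.71, 10.2 and 21.3 in WT palmitate, 1.06, 1.01 and 1.04 in RM mock, and 0.841, 3.45 and 0.69 in RM palmitate. The WT libraries lay above the RM libraries for both, with log2 fold changes of 3.70 ± 0.41 (adjusted p = 1.55e-05) and 3.81 ± 0.49 (adjusted p = 1.72e-04) for n-R5s90. The printed sequences of both carry the same interior stretch of 5S in capitals. It is not particular to them: n-R5s193, with a run of positions 1 to 90, holds it too and was not called in A.

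Among the other short interior runs called in mock were n-R5s96, n-R5s41 and n-R5s88. The feature n-R5s96 (chromosome 8, 48804600 to 48804723) had 31.2, 32.2 and 38 CPM in WT mock, 16.7, 27.6 and 43.6 in WT palmitate, 5.62, 3.19 and 3.26 in RM mock, and 3.92, 6.9 and 5.24 in RM palmitate. The values of n-R5s41 (chromosome 15, 82173083 to 82173201) were 16, 18.3 and 19.9, then 11.6, 13.7 and 22.3, then 2.58, 1.3 and 1.63, and then 2.1, 0 and 1.79 CPM. Those of n-R5s88 (chromosome 9, 102030218 to 102030335) were 13.8, 16.9 and 14.6, then 7.2, 11.3 and 18.9, then 3.19, 1.16 and 1.48, and then 3.64, 17.2 and 3.59 CPM. The WT libraries were above all RM libraries for n-R5s96 and n-R5s41, while the shallow RM palmitate library put n-R5s88 among its WT values. The log2 fold changes in mock were 3.06 ± 0.31 for n-R5s96 (adjusted p = 6.04e-06), 3.28 ± 0.30 for n-R5s41 (adjusted p = 1.33e-06) and 2.96 ± 0.41 for n-R5s88 (adjusted p = 3.08e-04). In palmitate n-R5s96 and n-R5s41 were called at 2.60 ± 0.34 and 3.0 ± 0.34 (adjusted p = 2.19e-04 and 3.25e-05). There n-R5s88 was not called, and it was without the shallow library, at 1.69 (adjusted p = 0.0131).

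Fainter copies of this kind were n-R5s152, Gm23799 and n-R5s65. Levels of n-R5s152 (chromosome 7, 20595433 to 20595551) were 5.52, 7.63 and 9.33 CPM in WT mock, 4.58, 5.66 and 12.3 in WT palmitate, 2.28, 0.724 and 0.445 in RM mock, and 0.841, 3.45 and 0.69 in RM palmitate. Gm23799 (chromosome 12, 57157623 to 57157742) had 4.42, 3.24 and 6.84, then 1.96, 3.26 and 8.92, then 0.608, 0.724 and 0.593, and then 0.42, 0 and 0.828 CPM. For n-R5s65 (chromosome 12, 92040059 to 92040175) the levels were 2.76, 3.7 and 2.8, then 1.96, 2.39 and 3.43, then 0.759, 0.145 and 0.445, and then 0.841, 3.45 and 1.1 CPM. All WT mock libraries were above all RM mock libraries. The log2 fold changes in mock were 2.69 ± 0.48, 2.83 ± 0.55 and 2.74 ± 0.49 (adjusted p = 0.00252, 0.00447 and 0.00165), and in palmitate n-R5s152 and Gm23799 were called at 3.04 ± 0.57 and 2.72 ± 0.62 (adjusted p = 0.00468 and 0.0173). Without RM palmitate replicate 1 the palmitate calls of n-R5s152 (adjusted p = 0.0531) and Gm23799 (adjusted p = 0.122) were lost.

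ENSMUSG00000070199 (chromosome 1, 46431042 to 46431160) had 34.2, 29.2 and 30.2 CPM in WT mock, 23.2, 25.2 and 33.6 in WT palmitate, 7.14, 3.48 and 2.37 in RM mock, and 6.45, 3.45 and 2.76 in RM palmitate. WT was above RM in every library of A, by 2.85 ± 0.32 in mock (adjusted p = 2.16e-05) and 2.56 ± 0.35 in palmitate (adjusted p = 3.45e-04) on the log2 scale.

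Copies with interior runs of 35 to 43 bases that were called in both treatments differed less than the called copies with shorter runs. Of the same length range, n-R5s156, n-R5s161 and n-R5s77 are given above and Gm26197 below. The feature n-R5s46 (chromosome 14, 37669115 to 37669230, run 48 to 90) had 22.9, 22.4 and 26.8 CPM in WT mock, 13.1, 16.5 and 31.6 in WT palmitate, 8.81, 8.83 and 7.41 in RM mock, and 4.9, 13.8 and 4.97 in RM palmitate. Gm24573 (chromosome 4, 48775723 to 48775834, run 48 to 89) had 25.4, 23.1 and 24.6, then 15.7, 17.8 and 28.8, then 11.2, 7.39 and 8.15, and then 6.73, 24.1 and 7.32 CPM. Levels of n-R5s58 (chromosome 12, 54147695 to 54147813, run 58 to 92) were 6.9, 4.16 and 7.47, then 6.88, 5.66 and 7.89, then 3.34, 2.75 and 2.67, and then 2.1, 3.45 and 1.93 CPM. In palmitate the shallow RM library overlapped with WT for n-R5s46 and Gm24573. The log2 fold changes were 1.52 ± 0.27, 1.45 ± 0.26 and 1.05 ± 0.28 in mock (adjusted p = 0.00156, 0.00202 and 0.0413) and 1.89 ± 0.32, 1.38 ± 0.30 and 1.7 ± 0.32 in palmitate (adjusted p = 0.00149, 0.0121 and 0.00344). The mock call of n-R5s58 was lost under 7 of 11 alternatives, with adjusted p between 0.0265 and 0.241. The palmitate call of Gm24573 was lost under 4, among them without RM palmitate replicate 1 and without replicate 3 (highest adjusted p 0.132).

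A further group of interior copies, with higher levels, was called in palmitate and not in mock in the main fit. Levels of n-R5s151 (chromosome 7, 17057162 to 17057280, run 37 to 80) were 458, 464 and 583 CPM in WT mock, 613, 667 and 792 in WT palmitate, 358, 237 and 200 in RM mock, and 269, 134 and 199 in RM palmitate. For n-R5s64 (chromosome 12, 87059427 to 87059545, run 32 to 88) they were 414, 474 and 562, then 599, 677 and 821, then 344, 217 and 185, and then 255, 93.1 and 180 CPM. The feature n-R5s1 on chromosome Y (328073 to 328191, run 38 to 91) had 452, 475 and 589, then 618, 673 and 802, then 346, 218 and 186, and then 248, 124 and 181 CPM. Every WT library was above every RM library for n-R5s151, n-R5s64 and n-R5s1.

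Gm26381 (chromosome 16, 41217858 to 41217949, run 38 to 91) had 434, 478 and 579 CPM in WT mock, 619, 684 and 798 in WT palmitate, 339, 221 and 188 in RM mock, and 263, 65.5 and 171 in RM palmitate. The levels of n-R5s56 (chromosome 13, 104186282 to 104186386, run 38 to 83) were 416, 452 and 587, then 600, 655 and 782, then 335, 215 and 182, and then 242, 41.4 and 170 CPM. Gm26197 (chromosome 14, 78711033 to 78711147, run 38 to 75) had 420, 447 and 526, then 571, 624 and 756, then 326, 196 and 173, and then 232, 27.6 and 170 CPM. In palmitate these 6 features were called higher in WT by 1.76 ± 0.37 for n-R5s151 to 2.11 ± 0.49 for Gm26197, with adjusted p from 0.00564 to 0.0175. The call of Gm26197 was lost without WT palmitate replicate 2 (adjusted p = 0.0549) and without RM palmitate replicate 3 (adjusted p = 0.0523). In mock their log2 fold changes were 0.92 to 1.02 and not called, and no interaction of palmitate and genotype was called, so a different response in the treatments is not shown. Their numbers moved together and their runs overlap, so they are not 6 independent measurements.

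The sets called lower in WT mock were ENSMUSG00000064962 and Gm23757. ENSMUSG00000064962 (chromosome 8, 5069259 to 5069377, outside the array) had 12.4, 13.6 and 12.4 CPM in WT mock, 11.6, 13.5 and 21.6 in WT palmitate, 35.4, 22.9 and 22.8 in RM mock, and 19.3, 17.2 and 26.4 in RM palmitate of A. Gm23757 (chromosome 10, 26077753 to 26077852, run 107 to 119) had 0.552, 1.62 and 2.18, then 2.95, 2.18 and 4.46, then 5.62, 3.77 and 3.11, and then 4.2, 3.45 and 4.42 CPM. The WT mock libraries lay below the RM mock libraries in both. The log2 fold changes were -1.07 ± 0.24 (adjusted p = 0.0141) and -1.52 ± 0.41 (adjusted p = 0.0413), and they were lost under 3 and 6 of the 11 alternatives, including without WT mock replicate 1, without WT mock replicate 2 and without RM mock replicate 1 for both.

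In dataset B, 3 sets were called higher in WT than in RM under mock treatment, beside 6.24% of all features called higher, and 2 were called lower in palmitate, beside 4.2% of all features called lower. The share of sets called, 4.48% and 2.99%, was not above that of all features. The feature n-R5s175 (chromosome 5, 119747254 to 119747370, run 1 to 24) had 35.1, 44.3 and 37.5 CPM in WT mock and 16.1, 11.2 and 10.5 in RM mock, with 33.6, 41.7 and 20 in WT palmitate and 12.9, 31.6 and 51.9 in RM palmitate. Levels of n-R5s158 (chromosome 7, 135918360 to 135918477, run 1 to 23) were 12.9, 21.3 and 20.2 in WT mock and 6.81, 6.82 and 5.37 in RM mock, with 12.2, 19.5 and 7.52 in WT palmitate and 4.88, 11.6 and 8.74 in RM palmitate. Those of n-R5s40 (chromosome 15, 79522932 to 79523055, run 31 to 60) were 3.86, 7.76 and 9.03 in WT mock and 3.59, 3.14 and 2.05 in RM mock, with 2.24, 4.17 and 2.17 in WT palmitate and 0.86, 2.77 and 2.33 in RM palmitate. WT mock was above RM mock in every library, by 1.61 ± 0.44 for n-R5s175, 1.49 ± 0.33 for n-R5s158 and 1.17 ± 0.36 for n-R5s40 on the log2 scale (adjusted p = 0.0424, 0.0118 and 0.0379). No call remained without WT mock replicate 2 or without RM mock replicate 3, and 9 sets were called without WT mock replicate 1.

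Lower in WT palmitate of B were Gm23757 and n-R5s197. Gm23757 had 2.08, 2.87 and 3.34 CPM in WT palmitate and 5.16, 8.87 and 19.2 in RM palmitate, beside 2.07, 2.44 and 2.51 in WT mock and 2.48, 4.36 and 1.02 in RM mock. The feature n-R5s197 (chromosome 3, 88710432 to 88710550, run 3 to 23) had 2.24, 2.87 and 2.17 in WT palmitate and 3.73, 4.99 and 15.7 in RM palmitate, beside 2.75, 2.59 and 2.68 in WT mock and 2.97, 2.86 and 3.32 in RM mock. RM palmitate replicate 3 held the highest value of each. The log2 fold changes were -1.92 ± 0.48 (adjusted p = 0.0293) and -1.66 ± 0.44 (adjusted p = 0.0322), and neither was called without RM palmitate replicate 2, without replicate 3 or without any single WT palmitate library.

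The genotype difference differed between datasets A and B for 18 sets, each with a larger WT excess in A, beside 5.35% of all features called in that direction. Of these 18 sets, 16 were among the 20 called higher in WT in A. The median over the 67 sets was 0.72 on the log2 scale, beside 0.00 over all features, and the array sets ran from -0.20 to 1.07 with none called. Without RM palmitate replicates 2 and 3 of B, 10 sets were called. The mitochondrial rRNAs were called in the same direction, mt-Rnr1 at 2.25 (adjusted p = 0.00249) and mt-Rnr2 at 2.44 (adjusted p = 0.00157), but without a called WT excess in A. In A, WT against RM stood at 0.37 in mock and -0.26 in palmitate for mt-Rnr1, and at 0.12 and 0.20 for mt-Rnr2. In B both were lower in WT. In palmitate they were called, at -3.24 (adjusted p = 0.00205) and -3.19 (adjusted p = 0.0043), and in mock, at -1.16 and -1.39, they were not.

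No rRNA set was called with palmitate in dataset A. In WT 0 of 60 tested sets were called, beside 0.335% of all features, and 1 had an unadjusted p under 0.05. In RM 0 were called, beside 0.477% of all features, and 14 had an unadjusted p under 0.05. DESeq2 and each left-out library also gave 0 in both. The fit with no filter on low counts gave 7 in RM, for which the calls over all features are not given here. The median log2 fold change was 0.30 in WT and 0.04 in RM. The highest value was 4.16 ± 1.55 (adjusted p = 0.309) for n-R5s77 in RM, named after its values were seen. Its levels were 12.8, 607 and 10.8 CPM in RM palmitate and 12.8, 6.52 and 7.12 in RM mock, so the shallow replicate 2 alone stood above the rest. For n-R5-8s1 the log2 fold change was -0.30 ± 0.57 in WT (adjusted p = 0.887) and -0.02 ± 0.57 in RM (adjusted p = 0.998). No interaction of palmitate and genotype was called in A, for rRNA sets or, at 0%, for any feature, and 2 sets had an unadjusted p under 0.05.

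In dataset B the sets leaned down with palmitate in WT and up in RM, and few were called. In WT 66 of 67 log2 fold changes were negative with a median of -0.36, and 1 set, n-R5s40, was called at -1.31 ± 0.37 (adjusted p = 0.0258), beside 6.12% of all features called lower. In RM 61 were positive with a median of 0.89, and 2 sets were called higher, beside 5.08% of all features. These were Gm23757, at 1.90 ± 0.47 (adjusted p = 0.0291), and n-R5s33 (chromosome 16, 33001989 to 33002107, run 65 to 119), at 1.59 ± 0.38 (adjusted p = 0.0322). Levels of n-R5s33 were 602, 501 and 502 CPM in RM mock and 780, 1304 and 2750 in RM palmitate, with 825, 1260 and 912 in WT mock and 732, 763 and 565 in WT palmitate. The call of n-R5s33 was lost under 7 of 12 alternatives and that of Gm23757 under 5, each of them without RM palmitate replicate 2. That of n-R5s40 was lost under 4 of 11.

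**Figure D3:**
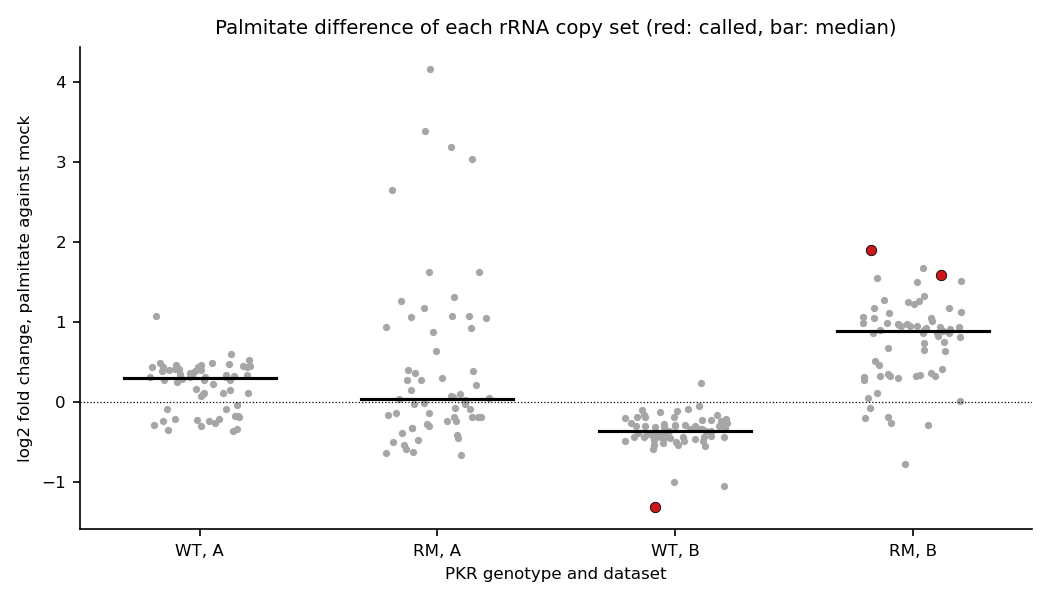
Each point is the log2 fold change of palmitate against mock (y axis) of 1 rRNA copy set in WT or RM cells of datasets A and B, with called sets in red and the median as a bar. The medians are 0.30 and 0.04 in A, and -0.36 and 0.89 in B, where WT and RM stand on opposite sides of 0.

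The array followed the same course in B. The 32-copy set had 3327, 5559 and 4465 CPM in WT mock, 3633, 3198 and 3121 in WT palmitate, 2889, 3111 and 2867 in RM mock, and 2918, 5216 and 8085 in RM palmitate. Only replicates 2 and 3 of RM palmitate were above RM mock. Its log2 fold change with palmitate was -0.42 ± 0.30 in WT (adjusted p = 0.347) and 0.87 ± 0.30 in RM (adjusted p = 0.0749). ENSMUSG00000075740 had 2034, 3134 and 2700, then 2177, 2208 and 1873, then 1686, 2231 and 2057, and then 1864, 3199 and 4927 CPM in the same order of groups. ENSMUSG00000093367 had 2262, 3383 and 2887, then 2208, 2199 and 1856, then 1703, 2282 and 2083, and then 2099, 3476 and 5983 CPM. ENSMUSG00000075838 had 2257, 3379 and 2838, then 2171, 2235 and 1823, then 1702, 2279 and 2061, and then 2177, 3594 and 6040 CPM. RM palmitate replicate 3 was the highest library for each of these, and also for n-R5s193, with 1964, 3013 and 2767, then 2077, 1937 and 1756, then 1551, 2090 and 1921, and then 1682, 2956 and 4040 CPM.

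All 67 log2 interactions of palmitate and genotype were negative in B, with a median of -1.21, and none was called, as for all features (0%). By unadjusted p 23 were under 0.05, and DESeq2 called 10, for which the calls over all features are not given here. The sets share libraries and reads, so the common sign is not 67 separate observations. The result turned on the RM palmitate libraries: without replicate 1 the called sets numbered 22 for palmitate in RM, 21 for WT against RM in palmitate and 20 for the interaction. Calls over all features rose too, from 939 to 2671, from 974 to 2500 and from 0 to 903. Set against the 67 sets and 12466 features tested in the main fit of B, the called share was higher among the sets. That excess was not tested. Without replicates 2 and 3 the palmitate comparison in RM and the genotype comparison in palmitate had 0 calls. The mitochondrial rRNAs, the nearest other features, moved with them: in RM of B, palmitate raised mt-Rnr1 by 2.49 ± 0.46 (adjusted p = 0.00855) and mt-Rnr2 by 1.96 ± 0.49 (adjusted p = 0.0305) on the log2 scale, and the part of the RM libraries in this was not tested.

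The make-up of the 5S signal differed between datasets A and B. To compare it free of scaling, each set's count was taken as a percentage of the count of the 32-copy set in the same library. For n-R5s2, the copy with the 3′ run (mm9 chromosome X, 5684009 to 5684127), this was 12.9% ± 2.38 (SD, n = 12) in A, from 9.52% to 15.8%, and 69.5% ± 10.8 (n = 12) in B, from 54.9% to 90.3%. The datasets did not overlap. For n-R5s33, with the same run, it was 9.95% ± 1.51 in A and 22.5% ± 4.88 in B, again without overlap, and for n-R5s71 (run 65 to 91) 2.77% ± 0.81 and 9.28% ± 2.80. ENSMUSG00000064962 stood at 0.732% ± 0.403 in A and at 12.2% ± 2.66 in B.

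In the other direction, n-R5s1 had a median of 15% in A and 4.47% in B, n-R5s193 79.5% and 57.4%, and n-R5s28, with a run of positions 1 to 36, 19.7% and 14.5%. All 3 ranges overlapped between A and B. The shallow library was the lowest of A for each, at 1.63% for n-R5s1, 22.7% for n-R5s193 and 6.52% for n-R5s28. The next lowest for n-R5s1 was 8.09%, above the highest value of B, 6.37%, while n-R5s193 and n-R5s28 overlapped without that library too. The same library was high for n-R5s185 (run 50 to 119), at 43.8% where the median of A was 10.6%.

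**Figure D4:**
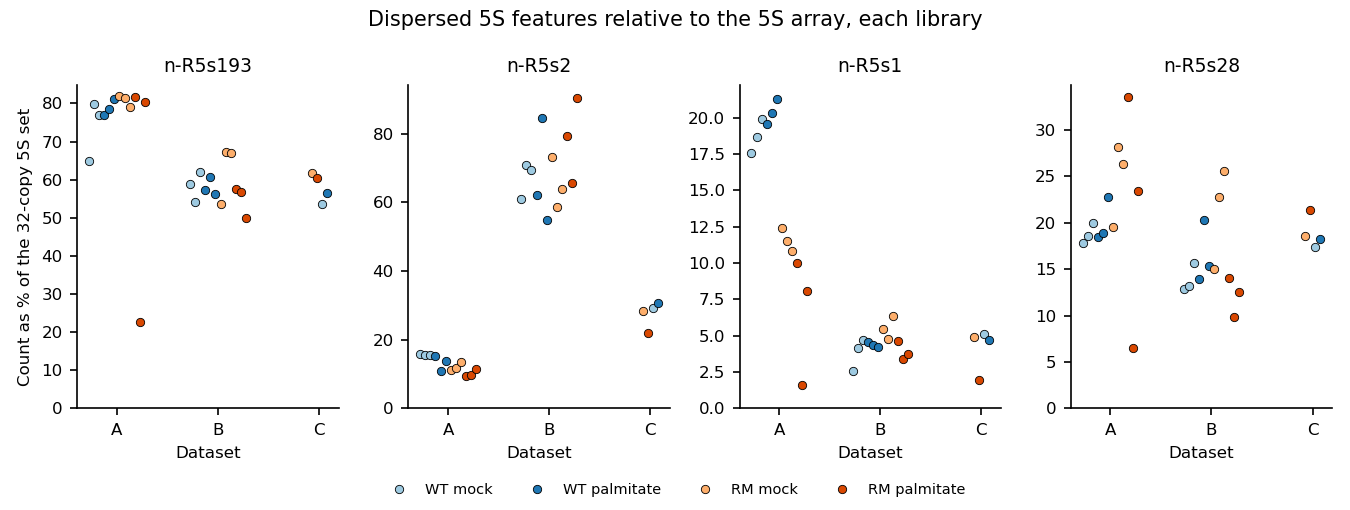
Counts of 4 dispersed 5S features as a percentage of the 32-copy 5S set (y axis) in each library of datasets A, B and C (x axis), coloured by group. For n-R5s2 the libraries of A lie between 9.52% and 15.8% and those of B between 54.9% and 90.3%, and 1 RM palmitate library of A is low for n-R5s193.

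In the fit of both datasets 35 sets were called higher and 16 lower in A than in B, beside 36.9% and 31% of all features. That split rests on the scaling: with total counts 8 were called higher and 37 lower, and the median of all features moved from 0.06 to -1.17. Relative to the median of all features the median set lay at 0.58 with TMM and at 0.61 with total counts. On the TMM scale n-R5-8s1 was at 2.97 ± 0.27 (adjusted p = 2.05e-10), the 32-copy set at 0.83 ± 0.20 (adjusted p = 5.86e-04), n-R5s2 at -1.65 ± 0.20 (adjusted p = 2.47e-08) and ENSMUSG00000064962 at -3.47 ± 0.20 (adjusted p = 2.82e-12). With total counts the 32-copy set reversed to -0.38 and n-R5s193 to -0.15. The palmitate difference, averaged over genotypes, differed between A and B for 0 sets, beside 2.72% of all features, with 2 sets at an unadjusted p under 0.05.

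Dataset C gave counts by strand in 7462653 to 11658726 counts per library. All 67 sets were listed in it, and none had a count on the strand opposite to the annotated one, whereas 19.1% of the features listed in the WT table and 31.8% of those in the RM table had some. In the WT libraries n-R5-8s1 stood at 36813 CPM with mock treatment and 34822 with palmitate, and in the RM libraries at 21456 and 9908. Gm24601 stood at 7539, 5665, 2573 and 968 CPM, the 32-copy set at 11518, 12123, 7359 and 6484, and n-R5s155 at 60, 51, 35.3 and 10.3 in the same order. The WT value was above the RM value in 66 of 67 sets in mock, with a median ratio of 1.59, and in 67 of 67 in palmitate, with a median ratio of 3.4. Palmitate over mock had a median ratio of 1 in WT and of 0.451 in RM. Every set but n-R5s28 was lower with palmitate in RM, and that set stood at 1372 CPM with mock and 1378 with palmitate. The columns marked t and c were read as palmitate and mock, which the labels do not spell out. With 1 library per group these differences have no replicate check. The ratios were not set beside those of all features of C, and the sets share libraries and reads. A difference particular to rRNA is thus not shown.

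The features whose levels most resembled those of the 32-copy set over the 24 libraries were 3 transfer RNA (tRNA) features for glycine (anticodon GCC), Cox7a2l and the small nuclear RNA feature Gm26110, with Spearman's rho from 0.87 to 0.89 among 6755 features. For n-R5-8s1 they were AA474408 and a microRNA feature, ENSMUSG00000092984 (rho 0.91 each), and tRNA features for lysine, methionine and glycine (0.87 to 0.88). These likenesses are descriptions over libraries that share depth and dataset.

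Of 63 names for 5S assembly and rRNA synthesis and maturation, 55 were tested in A and 57 in B. In A 1 was called with palmitate in WT (0.335% of all features), Dis3, higher, a nuclease of the RNA exosome, at 1.08 ± 0.22 (adjusted p = 0.0372), and none in RM. For WT against RM in A, where 3.74% of all features were called in mock and 3.43% in palmitate, Tbp, the TATA-binding protein, was lower in mock at -0.72 ± 0.18 (adjusted p = 0.0305), and in palmitate Trove2, the Ro protein that binds misfolded 5S rRNA, was higher at 0.95 ± 0.21 (adjusted p = 0.0147) while Rpl11 was lower at -0.97 ± 0.22 (adjusted p = 0.0173). In B 8 of the 57 were called higher and 3 lower with palmitate in WT, where 15.5% of all features were called. Higher were, among others, Rrs1, which brings 5S into the ribosome, at 1.13 ± 0.22 (adjusted p = 0.00362), and the polymerase III subunits Polr3e at 0.83 ± 0.16 (adjusted p = 0.00263) and Polr3d at 0.85 ± 0.21 (adjusted p = 0.0123). Lower were Gtf3c5 at -0.52 (adjusted p = 0.0264), Polr3c at -0.45 and Eri1 at -0.42. In RM of B 1 was higher, Taf1d, and 1 lower, Gtf3c5, beside 7.53% of all features. For WT against RM in B 2 were higher and 4 lower in mock, beside 14.1% of all features, and 1 was higher and 2 lower in palmitate, beside 7.81%. Between A and B 9 were higher and 34 lower in A, beside the 36.9% and 31% of all features given above. The medians of the list in WT were 0.14 in A and 0.01 in B.

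The authors' deposited table for palmitate in RM of B puts 11 of 67 rRNA sets past its threshold as higher, beside 1.9% of the 30210 features listed. The authors' deposited table for WT of B puts 21 as lower and 1 as higher, beside 2.52% and 3.99% of the features. Features without counts are among those listed. In the authors' deposited tables for A no rRNA set passed, where 77 features passed in RM and 181 in WT.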

How the data were processed

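The deposited values of datasets A and B are raw counts of each feature in each library. Those of dataset C are counts by strand and were added up. The submitters' processing notes name CASAVA 1.7.0 and 1.8.2, Novoalign and the build mm9. The sources used here do not give the counting tool, its treatment of reads that fit several copies or its use of strand. The authors' deposited log2 ratio and false discovery rate, read as a score of which 13.01 stands for 0.05, were used only for their own calls. The 52 other columns of values per sample were not used.

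Members, lists and tests were chosen with earlier results of these data known. Positions are mm9 as in the files, counted from 1. GENCODE M21 (GRCm38) gave symbols and transcript sequences by identifier, for 25755 of 29777 Ensembl identifiers. Copies share reads, so single copies are uncertain. Copy sets are connected groups, so members of the 32-copy set differed by up to 7.67% in 1 library.

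Every adjusted p is from the quasi-likelihood test of edgeR 4.0.16 (run in R 4.3.3 beside limma 3.58.1), with TMM scaling, filterByExpr and robust estimation, two-sided, with Benjamini-Hochberg adjustment over the 11328 features tested in A, 12466 in B or 12683 in both, and a threshold of 0.05. All 12 libraries of a dataset, or all 24, were fitted with 1 mean per group. CPM are counts scaled by TMM within a dataset, and in dataset C by total counts. The number of libraries, 3 per group, limits the precision, and no count interval is given. Values in every library are given for the 5.8S features, the 6 sets of highest mean and each set called within a dataset, and the others by ranges and counts. Alternatives were DESeq2 1.42.0, total-count scaling, no filter, removal of the extra copies, a replicate block and leaving out libraries. Of the pairs of libraries with the same number, 4 of 18 correlated above 0.1 in A (range -0.22 to 0.32) and 4 of 18 in B (range -0.13 to 0.27). Pairs with different numbers were not compared, so whether the numbers pair the libraries is not settled.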

Additional observations from a re-analysis of the deposited data

Results flagged for a closer look

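For 18 rRNA sets the log2 difference of WT minus RM was larger in dataset A than in dataset B by a test of that difference (edgeR's quasi-likelihood test, averaged over treatments). The 5.8S features differed by 3.11 ± 0.52 (n-R5-8s1, adjusted p = 2.92e-04) and 2.66 ± 0.51 (Gm24601, adjusted p = 0.0021). Among 5S-like features with interior runs of 34 bases or fewer, the difference was 3.67 for n-R5s155, 3.57 for n-R5s90, 3.08 for n-R5s41, 2.93 for n-R5s96, 2.85 for Gm23799, 2.71 for Gm23957, 2.39 for n-R5s152 and 2.16 for n-R5s88. With longer interior runs it was 1.86 for Gm26197, 1.73 for n-R5s56, 1.69 for Gm26381, 1.63 for n-R5s1, 1.47 for n-R5s64 and 1.34 for n-R5s151. Without a sequence at hand, it was 2.70 for ENSMUSG00000070199 and 1.66 for ENSMUSG00000065125. Of these calls, that of n-R5s88 was the least steady, holding in 17 of 30 alternatives. The mitochondrial rRNAs, which are not members, were called in the same test and direction, mt-Rnr1 at 2.25 (adjusted p = 0.00249) and mt-Rnr2 at 2.44 (adjusted p = 0.00157). Neither was called between WT and RM in A, and both were called lower in WT in palmitate of B.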

How the results depend on the processing

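The 5.8S calls in dataset A, and those of n-R5s96, n-R5s155, n-R5s41 and n-R5s90 there, held under each alternative run. Removal of the extra copies left the called sets at 16 and 18 for WT against RM in mock and palmitate of A. With the replicate block these counts were 17 and 19, and 39 sets were called between A and B. Whether the numbers pair the libraries is not settled, and the block moved no count of calls by more than 1.5 times. Leaving out 1 library gave 13 to 15 called sets for WT against RM in mock of A and 15 to 26 in palmitate. In dataset B the counts depended on single libraries: 0 to 2 for palmitate in WT, 0 to 22 for palmitate in RM, 0 to 9 for WT against RM in mock, 0 to 21 in palmitate, and 0 to 20 for the interaction. With RM palmitate replicates 2 and 3 of B left out, 0 sets were called for palmitate in RM and 0 for WT against RM in palmitate, and 10 for the genotype difference between datasets. DESeq2 called 21 sets for palmitate in RM of B, 8 for WT against RM in palmitate and 10 for the interaction. With no filter on low counts 7 sets were called for palmitate in RM of A and 5 for its interaction, and with total counts 4 for WT against RM in palmitate of B. Except for the fits of B without RM palmitate replicate 1, calls over all features under these alternatives are not given here. Counts of called sets alone show no excess among rRNA sets. The cause of these changes was not tested. With total counts the direction of A against B reversed for ENSMUSG00000093200 (-0.38), ENSMUSG00000075740 (-0.21), n-R5s193 (-0.15), ENSMUSG00000093367 (-0.56), ENSMUSG00000075838 (-0.57), n-R5s151 (-0.71), n-R5s88 (-1.12), n-R5s152 (-0.44), Gm23757 (-0.31), n-R5s197 (-0.86) and Gm23799 (-0.74), as that scaling moves the median of all features by itself. In WT against RM in palmitate of A, n-R5s33 went from -0.01 to 0.91 without RM palmitate replicate 2. A mean of 5 or 20 counts gave 113 or 89 members, and a tolerance of 10% gave 57 copy sets.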
